A study of Mus musculus with 6 samples.

Results

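Repeat-like piRNA-size sequences are small RNAs of 24 to 32 nt that occur word for word in the transcripts of many genes. A distinct sequence was counted as repeat-like when it matched exactly the longest annotated transcript of at least 10 genes that are not pseudogenes, with both orientations counted and both present. A sequence that matched a miRNA, rRNA, snRNA, snoRNA or misc_RNA gene in sense was left out. Of 10333652 distinct sequences of 24 to 32 nt in 6 libraries of mouse testis small RNA, 63904 met this rule, and they carried 3328070 reads. The median repeat-like sequence lay in 16 genes, and the most widely spread lay in 980. A share of 45.8% of them (29285 sequences) was seen in 1 library only, and 3155 were seen in all 6. The 3727 sequences with at least 100 reads held 81.3% of the reads.

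The testes came from C57BL/6 mice. The Dnmt3L knockout (KO) and its wildtype littermates (WT) were studied before birth, at 16.5 days after conception (dpc), and after birth, at 10 days of age (dpp). The Miwi2 knockout and its wildtype littermates were studied after birth only, at 10 dpp. Fetal pools held 7 or 8 mice and postnatal pools 3. Whole testis was used, each group is 1 library of the 18 to 35 nt RNA fraction, and how the alleles were made is not given in the labels. With 1 library per group there is no test of any difference. Small RNA reads do not measure the mRNA of the deleted genes, so the genotype labels were not checked in that way. Where 6 values are given in a row, they run WT before KO in each pair, with the fetal Dnmt3L pair first, the postnatal Dnmt3L pair next and the Miwi2 pair last.

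The libraries held 28701563 to 47232494 reads, and levels are reads per 1000000 reads of the library (RPM). Exact 95% intervals stand in brackets and take in counting error alone, because no molecular identifiers were used and PCR copies count as separate reads. The gonadal miRNA mmu-miR-202-5p was present in every library, at 5.08 to 117 RPM. The Dnmt3L pair of 10 dpp stood apart from the other 4 libraries. Its files hold reads of up to 100 nt, against 50 nt elsewhere. Among its 24 to 32 nt reads outside the repeat-like set, only 5.23% (WT) and 0.666% (KO) had 29 to 32 nt, against 22.9% to 26.1% in the other libraries. The part of this length gap in the results of that pair was not tested beyond the values by length given with them. In whole testis, fewer germ cells and less piRNA per cell cannot be told apart.

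PIWI-interacting RNAs (piRNAs) are small RNAs of the germ line that guide PIWI proteins to transposon transcripts. In the fetal testis, MILI cuts transposon RNA and the cleavage product can become a new piRNA on the opposite strand, a cycle known as ping-pong. It leaves piRNA pairs whose first 10 bases are complementary, with U at position 1 on one side and A at position 10 on the other. MIWI2 is the nuclear PIWI protein through which piRNAs direct DNA methylation of transposons, and DNMT3L is the cofactor of the enzymes that set this methylation. The elements at issue here are long interspersed L1 elements, endogenous retroviruses such as the intracisternal A particle (IAP) and MERVL, and the short interspersed elements B1 and B2, which are common in introns and 3′ UTRs.

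The sequences below are the ones on which the results turn. They are among the 12 with the most reads (at most 3 from any overlap group, that is, a set of sequences linked by shared runs of 20 bases), or among the 3 largest rises or falls of a comparison (1 per overlap group). They are written 5′ to 3′ as DNA, and capitals mark a T at position 1 and an A at position 10.
B1 25-mer: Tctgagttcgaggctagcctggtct
B1 24-mer, opposite strand: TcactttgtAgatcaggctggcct
L1 29-mer: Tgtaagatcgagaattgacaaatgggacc
L1 28-mer: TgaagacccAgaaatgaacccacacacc
L1 30-mer, opposite strand: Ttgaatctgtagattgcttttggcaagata
L1 27-mer: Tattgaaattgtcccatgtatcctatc
L1 30-mer of Miwi2 KO: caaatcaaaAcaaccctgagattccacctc
IAP LTR 26-mer: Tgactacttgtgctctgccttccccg
IAP LTR 27-mer: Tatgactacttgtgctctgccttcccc
family 3 27-mer: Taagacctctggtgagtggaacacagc
family 3 26-mer: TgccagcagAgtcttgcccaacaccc
family 2 30-mer: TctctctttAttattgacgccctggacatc

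Each of these lies in several genes, so a coordinate names 1 copy only, on GRCm38 with GENCODE release M21. The B1 25-mer lies in 16 genes, the first in alphabetical order being Cdk2, where it is antisense to the gene at chr10:128703397-128703421. The B1 24-mer lies in 25 genes, among them 4632433K11Rik (5′ UTR, chr7:5034233-5034256). The L1 29-mer lies in 11 genes, with a copy in the lincRNA A130077B15Rik (chr10:122566493-122566521). The L1 28-mer lies in 20 genes, including a transcript of Cpa6 without a coding part (chr1:10476335-10476362). The L1 30-mer of the opposite strand and the L1 27-mer lie in 15 and 14 genes and share the lincRNA AC160336.1, at chr14:44636409-44636438 and chr14:44605060-44605086. The L1 30-mer of Miwi2 KO lies in 41 genes, including 1700008H02Rik (chr5:82121326-82121355). Both IAP LTR sequences lie in 26 genes, and overlap each other in the lincRNA B230220B15Rik, the 26-mer at chr13:108002941-108002966. The family 3 sequences lie in 11 and 17 genes, with copies at chr2:128956981-128957007 in 4933427J07Rik and chr17:4082135-4082160 in 4930470H14Rik. The family 2 30-mer lies in 11 genes, again with a copy in B230220B15Rik (chr13:107999174-107999203).

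The repeat-like sequences fell into few families. Sequences that overlapped, or that lay side by side in the same transcripts, were joined into 112 families, and 17 of 26 short landmark sequences of known elements named 8 of them. L1 was the largest family, with 26339 sequences in 974 genes and 46.7% of the reads. B1 followed with 9268 sequences in 3701 genes and 22.1% of the reads, and the IAP long terminal repeat (LTR) with 3873 sequences in 136 genes and 12.5%. B2 held 4.79% of the reads, MERVL 2.97%, the IAP 5′ UTR 1.72% and IAP gag 0.629%. The largest families without a landmark, called families 1, 2, 3 and 4 here by their read counts, held 3.75%, 1.48%, 1.41% and 0.543%. The 102 families beyond the first 10 held 1.89% of the reads together.

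The copies lay mostly outside coding parts. Over all places in transcripts, 60.2% were in transcripts with no coding part, 36.02% in 3′ UTRs, 2.25% in 5′ UTRs and 1.54% in coding parts. Copies ran along the gene in 49.3% of places and against it in the rest, a balance that the rule itself favours by asking for both orientations. Strands are therefore given relative to the element. B1 had the largest share in 3′ UTRs among the 6 families with the most reads, 45.6%, and MERVL the smallest, 12.01%. The gene with the largest share of the L1 sequences was Gm47164, which held 51.5% of them. Noct, which encodes nocturnin, held 63.4% of the IAP LTR sequences, and Tmem72 held 85.4% of the MERVL sequences.

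Summed over all 63904 sequences, repeat-like reads were at 18216 RPM in Dnmt3L WT and 18406 RPM in Dnmt3L KO at 16.5 dpc. At 10 dpp they were at 7218 RPM in Dnmt3L WT, 2348 RPM in Dnmt3L KO, 10673 RPM in Miwi2 WT and 23224 RPM in Miwi2 KO. The fetal pair was thus nearly level, and the 10 dpp libraries differed in opposite directions, low in Dnmt3L KO and high in Miwi2 KO. The KO to WT ratio was 1.01 at 16.5 dpc, 0.325 (0.323 to 0.328) for Dnmt3L at 10 dpp and 2.18 (2.17 to 2.18) for Miwi2. All other reads of 24 to 32 nt had ratios of 1.09, 0.721 and 0.958 in the same comparisons. The Miwi2 WT library held 1.48 times (1.47 to 1.49) the level of Dnmt3L WT at the same age, which is the only measure of spread between libraries of like genotype and age. As a share of all 24 to 32 nt reads, the repeat-like sequences made up 4.32%, 4.01%, 3.67%, 1.69%, 3.81% and 8.25%.

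The make-up of this pool changed with age and genotype. L1 made up 49.8% and 50.8% of repeat-like reads in the fetal WT and KO, and B1 10.6% and 10.4%. In the WT libraries of 10 dpp B1 led instead, with 56.4% in the Dnmt3L line and 49.4% in the Miwi2 line, and L1 made up 24.1% and 23.6%. In both KO libraries of 10 dpp L1 led again, with 59.9% without Dnmt3L and 58.9% without Miwi2. The paths to that like share differed, since B1 was low in Dnmt3L KO and L1 was high in Miwi2 KO.

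L1 reads were much higher in Miwi2 KO than in its WT. L1 is the main active retrotransposon of the mouse, and encodes an RNA-binding protein (ORF1) and a reverse transcriptase (ORF2). Its sequences summed to 9075 and 9344 RPM in the fetal WT and KO, 1737 and 1406 RPM in the Dnmt3L pair of 10 dpp, and 2523 and 13672 RPM in the Miwi2 pair. Miwi2 KO was the highest of all 6 libraries, above the fetal ones. The ratio to WT was 5.42 (5.39 to 5.46), against 1.45 between both WT libraries of 10 dpp. In Dnmt3L KO the ratio was 1.03 at 16.5 dpc and 0.809 (0.7995 to 0.820) at 10 dpp, the latter within the difference of the WT libraries. Scaled to the 24 to 32 nt reads in place of all reads, the 10 dpp Dnmt3L log2 ratio of L1 went from -0.30 to 0.20, so its direction was not settled.

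The rise in Miwi2 KO was seen in most L1 overlap groups that had reads in that pair. Of the 141 groups, 96 were higher in Miwi2 KO than in WT and 19 were lower, and the others had no reads in either library. The 25 groups with at least 5000 reads in the 4 Dnmt3L libraries, a choice that does not use the Miwi2 pair, had ratios from 1.81 to 25.3 in Miwi2 KO, with a median of 8.06. Among the 29 groups with at least 5000 reads over all 6 libraries, 14 were above 1 in Dnmt3L KO at 10 dpp (0.238 to 3.66, median 0.947) and 17 at 16.5 dpc (0.448 to 3.45, median 1.08). Some single L1 sequences fell in Miwi2 KO, as given with the single sequences. The number of distinct L1 sequences rose too. In libraries thinned to 28701563 reads, 5980 were seen in Miwi2 WT and 9903 in Miwi2 KO, against 5816 and 4546 in the Dnmt3L pair of 10 dpp.

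The L1 strands did not move alike. Sense reads, on the strand of the L1 transcript, made up 50.5% of L1 reads in the fetal WT and 55.7% in the fetal KO. At 10 dpp they made up 58.1% in Dnmt3L WT and 77.7% in Dnmt3L KO, and 72.2% in Miwi2 WT and 88.0% in Miwi2 KO. The sense share was thus higher in the KO of each pair. In Miwi2 KO sense reads were at 6.61 times and antisense reads at 2.33 times the WT level. In Dnmt3L KO at 10 dpp sense reads were at 1.08 times and antisense reads at 0.431 times WT.

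Single L1 sequences followed the sum in different degrees. The L1 29-mer was at 297 and 152 RPM in the fetal WT and KO, 2.55 and 2.82 RPM in the Dnmt3L pair of 10 dpp, and 52.6 and 465 RPM in Miwi2 WT and KO. Only in the Dnmt3L libraries of 10 dpp was it nearly missing. Its ratio in Miwi2 KO was 8.84 (8.47 to 9.23), less than the 20.6-fold difference between both WT libraries of 10 dpp. Among L1 reads, 19.9% had 29 to 32 nt in Dnmt3L WT at 10 dpp, against 39.4% in Miwi2 WT. The part of this length gap in the low level and in that difference was not tested. The L1 28-mer was at 50.8, 44.1, 9.43, 5.44, 124 and 448 RPM, a ratio of 3.60 (3.49 to 3.71) in Miwi2 KO, against 13.2-fold between those WT libraries. The L1 27-mer was at 8.45, 3.68, 1.16, 22.2, 0.244 and 22.9 RPM, and so was high in both KO libraries of 10 dpp, at 19.2 times WT (14.1 to 26.7) without Dnmt3L and 93.8 times WT (52.1 to 189) without Miwi2. Against this, the antisense L1 30-mer was at 180, 37.6, 37.2, 0.488, 26.4 and 9.38 RPM, lower in the KO of each pair.

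IAP LTR sequences also rose in Miwi2 KO. IAP elements are endogenous retroviruses that still move in the mouse, and the LTR is their promoter. The family summed to 3070, 2459, 335, 276, 772 and 3086 RPM, so that Miwi2 KO at 10 dpp was at the level of the fetal WT. The ratio in Miwi2 KO was 3.998 (3.95 to 4.05), against 2.30 between both WT libraries of 10 dpp. It was 0.823 in Dnmt3L KO at 10 dpp and 0.801 at 16.5 dpc, within that difference, and the 10 dpp log2 ratio of -0.28 became 0.22 when scaled to the 24 to 32 nt reads. Sense reads were at 5.58 times and antisense reads at 1.71 times WT in Miwi2 KO, and the sense share went from 59.1% to 82.5%. In Dnmt3L KO at 10 dpp it went from 68.2% to 84.7%, with antisense reads at 0.397 times WT. In the fetal pair it went the other way, from 64.5% in WT to 49.1% in KO, with sense reads at 0.610 and antisense reads at 1.15 times WT.

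The IAP LTR 26-mer was at 184, 81.2, 19.3, 21.6, 30.1 and 227 RPM. It was thus highest in Miwi2 KO, at 7.54 times WT (7.12 to 7.99). The 27-mer, which starts 2 bases before it, was at 53.1, 38.2, 30.3, 34.4, 35.0 and 323 RPM, or 9.22 times WT in Miwi2 KO (8.75 to 9.72). The other IAP stretches were largely fetal. The IAP 5′ UTR fell from 543 RPM in the fetal WT to 11.7 RPM in Dnmt3L WT at 10 dpp, and was at 20.5 RPM in Dnmt3L KO, 20.4 RPM in Miwi2 WT and 66.7 RPM in Miwi2 KO. IAP gag, the stretch that encodes the capsid, was at 221, 152, 6.07, 7.67, 23.4 and 78.2 RPM. Ratios in Miwi2 KO were 3.26 for the IAP 5′ UTR and 3.34 for gag. The gag ratio was smaller than the 3.86-fold difference between both WT libraries of 10 dpp.

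Among the families without a landmark, families 2 and 3 had the largest ratios in Miwi2 KO of the first 10 families. Family 3 has 216 sequences in 40 genes. It was at 469 and 445 RPM in the fetal pair, 1.79 and 16.5 RPM in the Dnmt3L pair of 10 dpp, and 6.93 and 140 RPM in Miwi2 WT and KO. It was nearly missing from both WT libraries of 10 dpp and present in both KO libraries, at 9.23 times WT (7.14 to 12.1) without Dnmt3L and 20.2 times (18.0 to 22.7) without Miwi2. The WT libraries differed by 3.88-fold. The strand of its most read sequence made up 98.5% of family 3 reads in Dnmt3L KO at 10 dpp and 94.6% in Miwi2 KO, against 33.8% and 36.5% in their WT. Its 10 most read sequences held 88.7% to 98.5% of its reads in each library. The family 3 27-mer was at 137, 116, 0.210, 4.60, 1.36 and 48.3 RPM, and the family 3 26-mer at 41.3, 46.3, 0.0263, 4.08, 0.178 and 15.2 RPM. Both were higher in the KO of each 10 dpp pair, and the 26-mer rested on 1 read in Dnmt3L WT (ratio 155, 27.3 to 6181). In 9 of the 40 genes (22.5%) family 3 lay within 500 nt of an L1 sequence. This share does not set family 3 apart from L1, since only L1 sequences in at least 10 genes were counted. No landmark named family 3, so whether it is a stretch of L1 was not settled.

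Family 2, with 523 sequences in 14 genes, lay within 500 nt of the IAP LTR in 11 of them. It was at 157 and 461 RPM in the fetal WT and KO, 34.3 and 26.1 RPM in the Dnmt3L pair of 10 dpp, and 57.6 and 439 RPM in Miwi2 WT and KO. It was the only one of the first 10 families with a ratio above 1.5 in the fetal comparison, 2.93 (2.85 to 3.01), and its ratio in Miwi2 KO was 7.62 (7.31 to 7.94). The strands differed between these comparisons. In the fetal KO the strand of its most read sequence was at 3.53 times WT and the other strand at 1.53 times. In Miwi2 KO they were at 2.52 and 15.9 times. The family 2 30-mer was at 0.165 RPM (7 reads) in the fetal WT and 7.85 RPM (371 reads) in the fetal KO, a ratio of 47.5 (22.8 to 119). It had 0 reads in the Dnmt3L pair of 10 dpp.

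B1 sequences were low in Dnmt3L KO at 10 dpp and close to the WT level in the other KO libraries. B1 is a short element derived from 7SL RNA, transcribed by RNA polymerase III, and many copies sit inside genes. It was at 1927 and 1906 RPM in the fetal pair, 4074 and 356 RPM in the Dnmt3L pair of 10 dpp, and 5277 and 4339 RPM in Miwi2 WT and KO. The only low library was Dnmt3L KO at 10 dpp, at 0.0873 times WT (0.0856 to 0.0891). The Miwi2 KO ratio was 0.822 (0.817 to 0.828), and both WT libraries differed by 1.30-fold. B1 was low in Dnmt3L KO at each length with over 100 reads in both libraries, with ratios of 0.0830 at 24 nt, 0.0876 at 25 nt, 0.0918 at 26 nt, 0.0892 at 27 nt and 0.129 at 28 nt.

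A large part of postnatal B1 was 1 sequence. The B1 25-mer was at 1.75 and 1.21 RPM in the fetal pair, 1534 and 131 RPM in the Dnmt3L pair of 10 dpp, and 1267 and 1203 RPM in Miwi2 WT and KO. It held 37.7% of B1 reads in Dnmt3L WT at 10 dpp and 24.002% in Miwi2 WT. In the fetal WT it had 74 reads. Between the WT libraries of the Dnmt3L line it was 879 times higher at 10 dpp (700 to 1119). Its ratio was 0.0856 in Dnmt3L KO at 10 dpp and 0.9501 in Miwi2 KO. The B1 24-mer of the other strand was at 6.94, 14.7, 322, 18.8, 163 and 130 RPM, likewise low in Dnmt3L KO (0.0586, 0.0537 to 0.0639). Without the 25-mer, the B1 log2 ratio in Dnmt3L KO at 10 dpp was -3.50 in place of -3.52, and without the 10 most read B1 sequences it was -3.33.

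The strand of B1 reads differed between ages. The B1 25-mer held part of this difference, more in the Dnmt3L line than in the Miwi2 line. In the fetal libraries 14.5% (WT) and 14.7% (KO) of B1 reads were sense, and at 10 dpp 57.4% and 55.6% in the Dnmt3L pair and 51.0% and 60.01% in the Miwi2 pair. Without the 25-mer the sense share was 14.4% and 14.6% in the fetal pair, 31.6% and 29.6% in the Dnmt3L pair of 10 dpp, and 35.5% and 44.7% in the Miwi2 pair. Over distinct B1 sequences the sense share was 30.6% in the fetal WT and 30.1% in Dnmt3L WT at 10 dpp. It thus hardly differed between the WT libraries of the Dnmt3L line. It was 31.3% in the fetal KO and 25.1% in Dnmt3L KO at 10 dpp. In the Miwi2 pair it was higher, at 35.96% in WT and 38.1% in KO. The bases at positions 1 and 10 differed too, and the 25-mer, which has no A at position 10, supplied 58413 of the 88958 sense reads in Dnmt3L WT at 10 dpp. Fetal B1 sense reads had A at position 10 in 65.5% (WT) and 69.6% (KO) of reads, and 10 dpp sense reads in 3.67% to 15.3% of theirs. Antisense reads had A at position 10 in 39.5% to 40.5% of fetal reads and 64.0% to 73.5% of 10 dpp reads. U at position 1 was in 90.1% to 96.8% of B1 sense reads at 10 dpp, against 62.4% to 63.2% in the fetal libraries. A at position 10 was therefore more frequent on the sense strand before birth and on the antisense strand at 10 dpp.

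B2, MERVL and family 1 shared the direction of B1 in both lines at 10 dpp. B2 derives from a tRNA, and MERVL is an endogenous retrovirus known from the early embryo. B2 was at 710, 681, 560, 104, 1019 and 727 RPM, with ratios of 0.185 (0.178 to 0.192) in Dnmt3L KO at 10 dpp and 0.714 in Miwi2 KO. MERVL was at 830, 938, 127, 39.998, 202 and 119 RPM, with ratios of 0.316 (0.296 to 0.337) and 0.588. Family 1 (5387 sequences in 510 genes) was at 682, 855, 269, 74.6, 613 and 416 RPM, with ratios of 0.278 (0.265 to 0.291) and 0.680. All were lower in both KO libraries than in their WT. Both WT libraries differed by 1.82-fold for B2, 1.60-fold for MERVL and 2.28-fold for family 1, so the Miwi2 ratios of B2 and family 1 were closer to 1 than that difference and that of MERVL was slightly farther from 1. B2 was mostly antisense before birth (33.8% and 38.4% sense) and mostly sense at 10 dpp (82.5% to 85.1%), whereas MERVL was mostly sense in every library (68.4% to 77.3%).

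Family 4 (1124 sequences in 408 genes) was at 124, 176, 22.9, 5.44, 50.7 and 32.3 RPM, lower in both KO libraries of 10 dpp. Its Miwi2 KO ratio of 0.637 was closer to 1 than the 2.21-fold difference between both WT libraries.

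Not all sequences in many genes came from transposons. A family with 108 sequences lay in 14 genes of which 12 are named as histone genes, and another with 98 sequences in 13 genes of which 12 are. Histone mRNAs come from many near-identical genes, so their reads cannot be assigned to 1 gene. The first was at 2.29, 3.09, 6.09, 2.51, 35.3 and 21.6 RPM, and the second at 11.4, 8.38, 6.78, 2.30, 20.95 and 19.5 RPM. Both were highest in Miwi2 WT. A family of simple repeats built on gaca, with 566 sequences in 2658 genes, held the single sequence found in the most genes (980) but only 0.0508% of the reads. It was at 11.8, 12.7, 1.45, 0.871, 5.78 and 6.77 RPM.

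Single sequences were also compared one by one, with a change called only past the spread between both WT libraries of 10 dpp. The 95th percentile of their absolute log2 difference over the 11282 sequences of 24 to 32 nt with at least 100 reads was 7.79, a 221-fold difference, so the limit was very wide. In Miwi2 KO 19 of 1380 repeat-like sequences tested were past it on the high side (1.38%, against 1.0% of all sequences tested) and 0 on the low side (0.244% of all sequences). The 19 were L1 sequences, of 660 tested (2.88%). In Dnmt3L KO at 10 dpp 0 of 387 were past it in either direction (0.0% of all sequences were higher and 0.262% lower), and at 16.5 dpc 0 of 2215 (0.0131% higher and 0.0262% lower). Between ages 13 of 1377 were higher at 10 dpp and 188 lower (0.944% and 13.7%, against 2.12% and 21.5% of all sequences). Of the 13 that were higher, 12 were B1 sequences, of 234 tested (5.13%). The share of the whole set past the limit was thus near or below the background in all of these comparisons.

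Medians over the tested sequences differed between families. A sequence was tested when its reads in both libraries of a comparison summed to at least 100. Some sequences therefore entered only through the library where they were high. Of L1, 660 sequences were tested in the Miwi2 pair, against 264 between both WT libraries of 10 dpp. The medians are thus no support apart from the summed levels. In Miwi2 KO the median log2 ratio was 2.91 for 660 L1 sequences, 2.22 for 127 IAP LTR sequences, -0.63 for 336 B1 sequences and -0.50 for 107 B2 sequences, with -0.10 over all 13951 sequences tested. In Dnmt3L KO at 10 dpp it was -0.55 for 166 L1 sequences, -0.67 for 35 IAP LTR sequences, -3.51 for 119 B1 sequences and -2.53 for 38 B2 sequences, with -1.80 over all 4955. L1 and IAP LTR thus lay above the overall median in both comparisons, and B1 and B2 below it. At 16.5 dpc the medians were 0.10 for 1103 L1 sequences, -0.05 for 225 B1 sequences and -0.01 over all 22891.

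Among the largest single changes in Miwi2 KO was the L1 30-mer of Miwi2 KO. It had 13, 45, 3, 2, 0 and 790 reads, which is at least 318-fold higher in Miwi2 KO than the 3 reads that a count of 0 in WT allows. A sense L1 sequence of 26 nt fell most, from 171 reads in Miwi2 WT to 2 in Miwi2 KO (ratio 0.0141, 0.00170 to 0.0519). In the Dnmt3L pair of 10 dpp an IAP LTR sense sequence of 30 nt, not printed here, fell from 106 reads in WT to 0 in KO. With 3 reads allowed for the count of 0, this is at most 0.0375 times WT. The largest fall in Dnmt3L KO at 10 dpp among the sequences printed here was that of the antisense L1 30-mer, at 0.0131 times WT (0.00714 to 0.0220), and it was also low in the fetal KO (0.210, 0.199 to 0.221). In that comparison 30 nt reads of L1 as a whole were at 0.108 times WT. The largest rise between ages was that of a 26 nt B1 sequence that overlaps the B1 25-mer, from 1 read in the fetal WT to 4930 in Dnmt3L WT at 10 dpp.

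The repeat-like reads carried more A at position 10 than other reads of the same size. It stood in 46.3%, 49.6%, 39.5%, 45.0%, 44.8% and 44.5% of repeat-like reads, against 29.2%, 28.1%, 22.8%, 13.7%, 25.97% and 27.1% of the others. The gap was present in each library and widest in Dnmt3L KO at 10 dpp. The sets were not matched for length, since 24 nt was the most frequent length of the others in each library. It made up 66.4% of them in Dnmt3L KO at 10 dpp. The others also keep sense matches to miRNA, rRNA, snRNA, snoRNA and misc_RNA genes, which the rule leaves out of the repeat-like set. The part of these differences in the gap was not tested. U at position 1 was in 68.8%, 63.1%, 81.2%, 75.2%, 72.0% and 74.1% of repeat-like reads, against 66.7% to 81.8% of others, with no common direction over the libraries. The most frequent length of repeat-like reads was 28 nt in both fetal libraries, 25 nt in both WT libraries of 10 dpp and 27 nt in both KO libraries of 10 dpp. B1 set the postnatal 25 nt, with 46.7% of its reads at that length in Dnmt3L WT and 31.0% in Miwi2 WT, whereas L1 was at 27 or 28 nt in all 6 libraries.

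The strands of the families differed in these marks. L1 antisense reads had A at position 10 in 64.4% (WT) and 69.7% (KO) of fetal reads, and sense reads in 40.4% of both. The most read L1 sequence, an antisense 28-mer not printed here, has A at position 10 and no U at position 1. It supplied 26550 of 190149 L1 antisense reads in the fetal WT and 47662 of 195360 in the fetal KO. The shares without it were not computed. In both WT libraries of 10 dpp A at position 10 was more frequent in L1 sense reads. It stood in 57.6% of sense and 54.6% of antisense reads in Dnmt3L WT, and in 59.9% and 51.4% in Miwi2 WT. In the KO libraries antisense led again, with 50.03% and 69.5% in Dnmt3L KO at 10 dpp and 52.0% and 63.7% in Miwi2 KO. IAP LTR sense reads were rich in U at position 1 in all libraries (89.1% to 94.8%) and poor in A at position 10 (6.85% to 15.2%). IAP LTR antisense reads had A at position 10 in 46.3% and 51.7% of fetal reads, 65.4% and 78.9% in the Dnmt3L pair of 10 dpp, and 74.1% and 82.6% in the Miwi2 pair.

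Complementary pairs with a 10 nt overlap of their 5′ ends were found in every library. For B1 and the IAP LTR, the pairs below have the largest product of read counts in the fetal WT. They were chosen after the values were seen, to show the form of such a pair.
B1 sense: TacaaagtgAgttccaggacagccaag
B1 antisense: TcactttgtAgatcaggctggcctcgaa
IAP LTR sense: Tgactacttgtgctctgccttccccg
IAP LTR antisense: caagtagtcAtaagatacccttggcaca

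In the B1 pair, which had 213 sense and 939 antisense reads in the fetal WT, both sequences begin with T and have A at position 10. They overlap in A530064N14Rik, at chr9:72687272-72687298 and chr9:72687289-72687316. In the IAP LTR pair, with 7790 sense and 156 antisense reads, only the sense read begins with T and only the antisense read has A at position 10. They lie in B230220B15Rik, at chr13:108002941-108002966 and chr13:108002957-108002984. The IAP LTR antisense sequence was at 3.68, 7.35, 2.73, 0.418, 4.62 and 5.13 RPM, so it did not follow the 7.54-fold rise of its sense partner in Miwi2 KO.

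Among overlaps of 1 to 20 nt, weighted by the product of reads, 10 nt took 47.4%, 53.7%, 27.5%, 38.1%, 36.6% and 37.9%, where an even spread gives 5%. It was the most frequent overlap in both fetal and both KO libraries of 10 dpp, but 12 nt led in Dnmt3L WT (43.2%) and Miwi2 WT (38.0%) at 10 dpp. The 12 nt overlap led for B1 in those 2 libraries and in Miwi2 KO (38.5%), whereas for L1 10 nt led in all 6, with 32.4% to 62.0%. For the IAP LTR 12 nt led in Dnmt3L WT (27.6%) and KO (24.6%) at 10 dpp. For B2 8 nt led in the Dnmt3L pair of 10 dpp and 13 nt in Miwi2 KO. In MERVL 8 nt led in Dnmt3L KO at 10 dpp, and in family 1 7 nt led in the fetal WT. These weights rest on few pairs. In Dnmt3L WT at 10 dpp 1 pair held 23.1% of the 10 nt weight, and the B1 25-mer was its sense side. In each fetal library 1 L1 pair, with the most read L1 28-mer as its antisense side, held 18.0% (WT) and 23.3% (KO) of this weight. Within L1 alone it held 32.3% (WT) and 32.4% (KO) of the 10 nt weight. Counted over distinct pairs, 10 nt led in every library, with 6.80% to 10.7%. A partner with a 10 nt overlap was present for 66.9%, 69.8%, 75.6%, 56.0%, 75.2% and 71.9% of repeat-like reads. The share was lowest in Dnmt3L KO at 10 dpp, the library with the fewest repeat-like sequences (8427). Of L1, B1, IAP LTR and B2, B2 had the widest range, 23.1% there and 60.1% to 75.3% elsewhere.

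The number of genes that hold a sequence split the set by family. Of the 63904 sequences, 40725 lay in 10 to 19 genes, 17570 in 20 to 49, 4025 in 50 to 99 and 1584 in 100 or more. L1 held 52.9%, 44.1%, 37.1% and 0.0212% of the reads of these classes, and B1 with B2 held 25.5%, 17.3%, 34.6% and 98.1%. Miwi2 KO ratios were 2.40, 2.37, 1.16 and 0.718 in this order, and Dnmt3L KO ratios at 10 dpp 0.316, 0.376, 0.263 and 0.160. The most widely spread class was thus low in both KO libraries of 10 dpp. It also differed most between both WT libraries, by 4.25-fold. Just inside the limit, the 7718 sequences in 10 genes summed to 1799, 1593, 300.2, 207, 636 and 1927 RPM, and just outside it the 9355 in 9 genes to 2614, 2367, 355, 229, 618 and 2317 RPM.

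The Dnmt3L ratio at 10 dpp differed between read lengths. Over all repeat-like reads it was 0.171 at 24 nt, 0.195 at 25 nt, 0.492 to 0.532 from 26 to 28 nt, 0.192 at 29 nt and 0.0946 at 30 nt. L1 was level between KO and WT at 24 nt (0.954), 26 nt (0.995) and 27 nt (1.01), above at 25 nt (1.21), and below at 28 nt (0.754), 29 nt (0.243) and 30 nt (0.108). The low short lengths of the whole set were those in which B1 was frequent, and the low long lengths were those that were rare in the Dnmt3L KO library in general. The part of either in these ratios was not tested. With 24 to 28 nt only, the log2 ratio of the whole set was -1.56 in place of -1.62 and that of B1 stayed at -3.52, while L1 was at -0.05 and the IAP LTR at -0.10. In Miwi2 KO L1 was above WT at each length from 24 to 32 nt, by 4.25-fold at 26 nt to 8.24-fold at 31 nt.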

How the data were processed

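The deposited files give, for every distinct read, its sequence and a count, which the authors did not normalize as far as the values show. What trimming and mapping preceded them is not given in the sources used here. The submitters' processing notes name the build mm9. Coordinates here are on GRCm38, from exact matches to the longest GENCODE M21 transcript of 55450 genes (41927 not pseudogenes), made on both strands with numba 0.67.0 and numpy 2.4.6 and tested on simulated data. Library depth sets a floor of 3 reads, or 0.0635 to 0.105 RPM.

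Repeat-like sequences that share 20 bases formed 546 overlap groups. Groups within 100 nt of each other in at least 5 genes, at least 50% of the smaller group's genes and 80% in 1 orientation, formed families. A landmark (up to 1 mismatch) named a family found within 100 nt of it in at least 5 genes and 80% of the genes that hold it. The landmarks come from general knowledge and were chosen after the files were read, so names rest on them. Strand is that of the element, or of the most read sequence in families without a landmark.

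The rule for repeat-like sequences, the named sequences and the lists were chosen with earlier results of these data known. Named sequences were the 12 with the most reads and the 3 largest rises and falls per comparison with at least 100 reads, and those over 30 nt or with a copy on chromosome 18 were not printed. Log2 ratios of single sequences add 0.5 reads. No test was run with 1 library per group. Intervals are exact Poisson, conditional binomial or Clopper-Pearson intervals (scipy 1.17.1). Alternatives changed the scaling, lengths, number of genes, orientation rule, read minimum, limit and leading sequences, and used distinct sequences in place of reads.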

Additional observations from a re-analysis of the deposited data

Results flagged for a closer look

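The Dnmt3L KO to WT log2 ratio was compared between ages, since the direction was opposite at 10 dpp and at 16.5 dpc in both single libraries of each age. The 10 dpp value minus the 16.5 dpc value was -1.64 for all repeat-like sequences, -0.35 for L1, -2.17 for family 1 and -1.84 for MERVL. Scaled to all reads, the KO was above WT at 16.5 dpc and below it at 10 dpp in each of them. Scaled to 24 to 32 nt reads, the fetal log2 ratio was -0.11 for all sequences and -0.08 for L1, and the 10 dpp ratio of L1 was 0.20, so the opposite directions were lost for all sequences and turned round for L1. The difference was not tested, since each group is 1 library, and the fetal ratios were close to 1 for all sequences (1.01) and L1 (1.03). For L1 the difference is smaller than the log2 difference of 0.54 between both WT libraries of 10 dpp.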

How the results depend on the processing

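Values are log2 ratios unless named as shares. The Miwi2 KO rise, and the fall in Dnmt3L KO at 10 dpp, of all repeat-like sequences kept their direction under each alternative run. Scaling to 24 to 32 nt reads gave, for Dnmt3L KO at 10 dpp, -1.12 for all sequences, 0.20 for L1, -3.02 for B1 and -1.16 for MERVL. Distinct sequences in thinned libraries gave -0.73 for all, -1.37 for B1, -1.39 for B2 and -0.80 for MERVL there, and 0.23 for all, 0.73 for L1 and 0.87 for the IAP LTR in Miwi2 KO.

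The age comparison of the Dnmt3L WT libraries moved with the scaling and with the use of distinct sequences. With miRNA reads it was -2.45 for all, -3.50 for L1, -4.31 for the IAP LTR, -1.46 for B2, -2.46 for family 1 and -3.83 for MERVL. With 24 to 32 nt reads it was -0.23 for all, -1.28 for L1, 2.18 for B1, -2.09 for the IAP LTR, 0.76 for B2, -0.24 for family 1 and -1.61 for MERVL. With 24 to 28 nt it was -0.78 for all, -1.90 for L1 and 1.84 for B1, and with at least 5 genes -1.78 for all. Distinct sequences gave -1.25 for L1, -1.81 for the IAP LTR and -1.89 for MERVL. The B1 value of 1.08 reversed to -0.036 with miRNA reads, -0.72 with distinct sequences and -0.065 without the 10 most read B1 sequences, and was 0.40 without the B1 25-mer. The cause of these shifts was not tested.

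The share of repeat-like sequences past the limit moved with the minimum and the limit. In Miwi2 KO the higher share was 2.52% with 50 reads and 0.279% with 500. At 16.5 dpc it was 0.0247% with 50 reads and 0.0451% with the scaling to 24 to 32 nt reads or with the limit over the repeat-like sequences alone. In Dnmt3L KO at 10 dpp the lower share was 0.142% with 50 reads and 0.258% with that limit. Between ages the higher share was 2.38% with 500 reads and 1.53% with the scaling to 24 to 32 nt reads, and the lower share 7.55% with that scaling and 21.1% with that limit.

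Over distinct sequences U at position 1 was in 48.7%, 46.4%, 52.6%, 53.1%, 47.6% and 46.0%, A at position 10 in 37.6% and 37.5% of the fetal and 39.1% and 40.2% of the Miwi2 libraries, and the 10 nt overlap took 7.28%, 6.80%, 9.49%, 10.7%, 8.61% and 8.35%. With 25 to 30 nt, A at position 10 was 30.6% in Dnmt3L WT at 10 dpp and 40.2% in Miwi2 KO. The limit over the repeat-like sequences, the alternatives without leading sequences of a family, the choice of L1 groups on the Dnmt3L libraries and the B1 sense shares without the 25-mer or over distinct sequences were chosen after seeing the data. Depth limits single sequences: the floor of 3 reads is up to 0.105 RPM. No paired analysis was possible because each group is 1 library.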
